A study of Mus musculus with 6 samples.

Results

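The genes described here are those of glycogen synthesis and breakdown and of the subunits that carry protein phosphatase 1 (PP1) to glycogen. They were chosen by symbol, 19 genes in all, and 13 of them had a probe set that the platform annotation gives to that symbol alone, out of 12393 genes measured. The core members Ppp1r3c, Gys2, Pygl, Gbe1 and Ugp2 are described first, together with Gyg, and the remaining enzymes and subunits after them. The remaining genes, the liver targeting subunit Ppp1r3b among them, were not analysed here. The TFEB-injected livers came from 3 wild-type C57 mice, 1 month old, that were given an adenoviral vector so that liver overexpressed TFEB, a transcription factor of lysosomal and autophagy genes. The livers they were set against came from 3 wild-type C57 mice, also 1 month old, that were not injected, and each liver was read on its own Affymetrix array. No liver is labelled as having received a vector without TFEB, so effects of TFEB, of the virus and of the injection cannot be told apart, and the labels give neither the promoter of the transgene nor the feeding state nor the hour of harvest.

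Glycogen is the branched glucose store of liver. Glycogenin starts the chain, phosphoglucomutase and UDP-glucose pyrophosphorylase make the activated glucose, glycogen synthase extends the chain and the branching enzyme adds branches. Glycogen phosphorylase releases glucose 1-phosphate from the chain ends. Targeting subunits hold PP1 on the glycogen particle, where the phosphatase removes phosphate from synthase, which activates it, and from phosphorylase, which inactivates it. The same transcripts are known to respond to feeding, insulin, glucagon and the hour of the day.

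The members did not move as a block. Ppp1r3c, which encodes the targeting subunit PTG, fell 6.45-fold in TFEB-injected livers, and Gyg, which encodes the priming protein glycogenin, rose 2.66-fold. Ugp2, which makes UDP-glucose, rose 1.68-fold, and Gbe1, the branching enzyme, was 1.42-fold lower. The liver synthase Gys2 and the liver phosphorylase Pygl did not pass the test. Of the 13 measured genes 4 were higher, 4 were lower and 5 were not called at a limma adjusted p under 0.05, that is 8 called, where 28.1% of all genes tested were called (14.2% higher and 13.9% lower). The members' median difference, TFEB-injected minus not-injected log2 value, was -0.16, and over all genes it was -0.05. In 10 of the 13 the values of the 2 groups did not overlap, beside 46.2% of all genes.

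TFEB is known to bind the CLEAR element, a sequence built on the E-box CACGTG. The sequences before the start sites are therefore shown for the core members with called changes and for Gyg. Each is the 250 bases before the annotated start, 5′ to 3′ on the gene's own strand, from RefSeq (GRCm38.p6), in lower case with any CACGTG in capitals. Ppp1r3c lies at chr19:36736605-36736854 on the minus strand, Gyg at chr3:20155117-20155366 on the minus strand, Ugp2 at chr11:21371268-21371517 on the minus strand (the more upstream of its 2 listed starts) and Gbe1 at chr16:70313699-70313948 on the plus strand.
Ppp1r3c: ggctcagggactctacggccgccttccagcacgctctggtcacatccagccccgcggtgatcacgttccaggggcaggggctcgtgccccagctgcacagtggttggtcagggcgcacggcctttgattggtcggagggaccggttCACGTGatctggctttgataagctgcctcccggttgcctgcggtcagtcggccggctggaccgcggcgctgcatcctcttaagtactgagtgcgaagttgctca
Gyg: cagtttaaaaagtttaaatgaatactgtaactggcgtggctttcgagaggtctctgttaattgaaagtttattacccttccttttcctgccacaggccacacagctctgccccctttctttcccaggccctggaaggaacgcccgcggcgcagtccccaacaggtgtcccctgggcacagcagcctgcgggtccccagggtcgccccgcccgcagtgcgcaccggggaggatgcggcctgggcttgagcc
Ugp2: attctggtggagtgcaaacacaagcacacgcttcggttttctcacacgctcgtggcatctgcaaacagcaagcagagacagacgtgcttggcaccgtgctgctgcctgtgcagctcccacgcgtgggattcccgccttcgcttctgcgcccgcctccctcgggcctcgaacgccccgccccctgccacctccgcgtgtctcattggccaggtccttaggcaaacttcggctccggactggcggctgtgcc
Gbe1: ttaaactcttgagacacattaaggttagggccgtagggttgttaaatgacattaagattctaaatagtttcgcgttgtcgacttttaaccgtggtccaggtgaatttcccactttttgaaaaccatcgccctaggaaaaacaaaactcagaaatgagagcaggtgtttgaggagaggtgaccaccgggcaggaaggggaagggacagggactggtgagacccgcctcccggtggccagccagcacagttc
CACGTG reads the same on both strands. It occurred once in the Ppp1r3c stretch, 104 bases before the start, within the longer palindrome TCACGTGA. It was in 1 of the 13 stretches found for 12 of the measured members. Of 32851 promoter stretches of this length in the table, 6.02% held CACGTG and 0.785% held TCACGTGA. The palindrome TGACGTCA, the full cyclic AMP response element, was in 0 of the 13 and in 1.55% of all. These are matches of letters and show no binding. Gys2 was without an entry in the promoter table.

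Ppp1r3c is the PP1 targeting subunit called protein targeting to glycogen. On its brighter probe set it read 9.16, 9.10 and 9.54 in TFEB-injected livers, against 12.05, 12.14 and 11.67 in not-injected livers, all log2 values as deposited. Every TFEB-injected liver lay at least 2 log2 units below every not-injected liver. The difference was -2.69 ± 0.16 (SE; limma adjusted p = 8.94e-05), with a 95% interval of -3.05 to -2.33. Only 5 of the 12393 genes had a lower difference. The second probe set read 5.67, 6.10 and 6.32 in TFEB-injected livers and 8.24, 7.47 and 7.39 in not-injected livers, and again the groups did not overlap. Its difference of -1.67 ± 0.25 passed the fit over all 20380 probe sets (adjusted p = 0.00305), in which 26.0% of probe sets were called. On the second probe set the lowest TFEB-injected value, 5.67, was just above the lower quartiles of the arrays (5.46 to 5.56). The part of that low level in the size of its difference was not tested. The sizes differed between the probe sets, 6.45-fold and 3.18-fold lower, and the direction did not. The fall kept its call with each array left out, between -2.83 without not-injected replicate 3 and -2.60 without not-injected replicate 2.

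**Figure D1:**
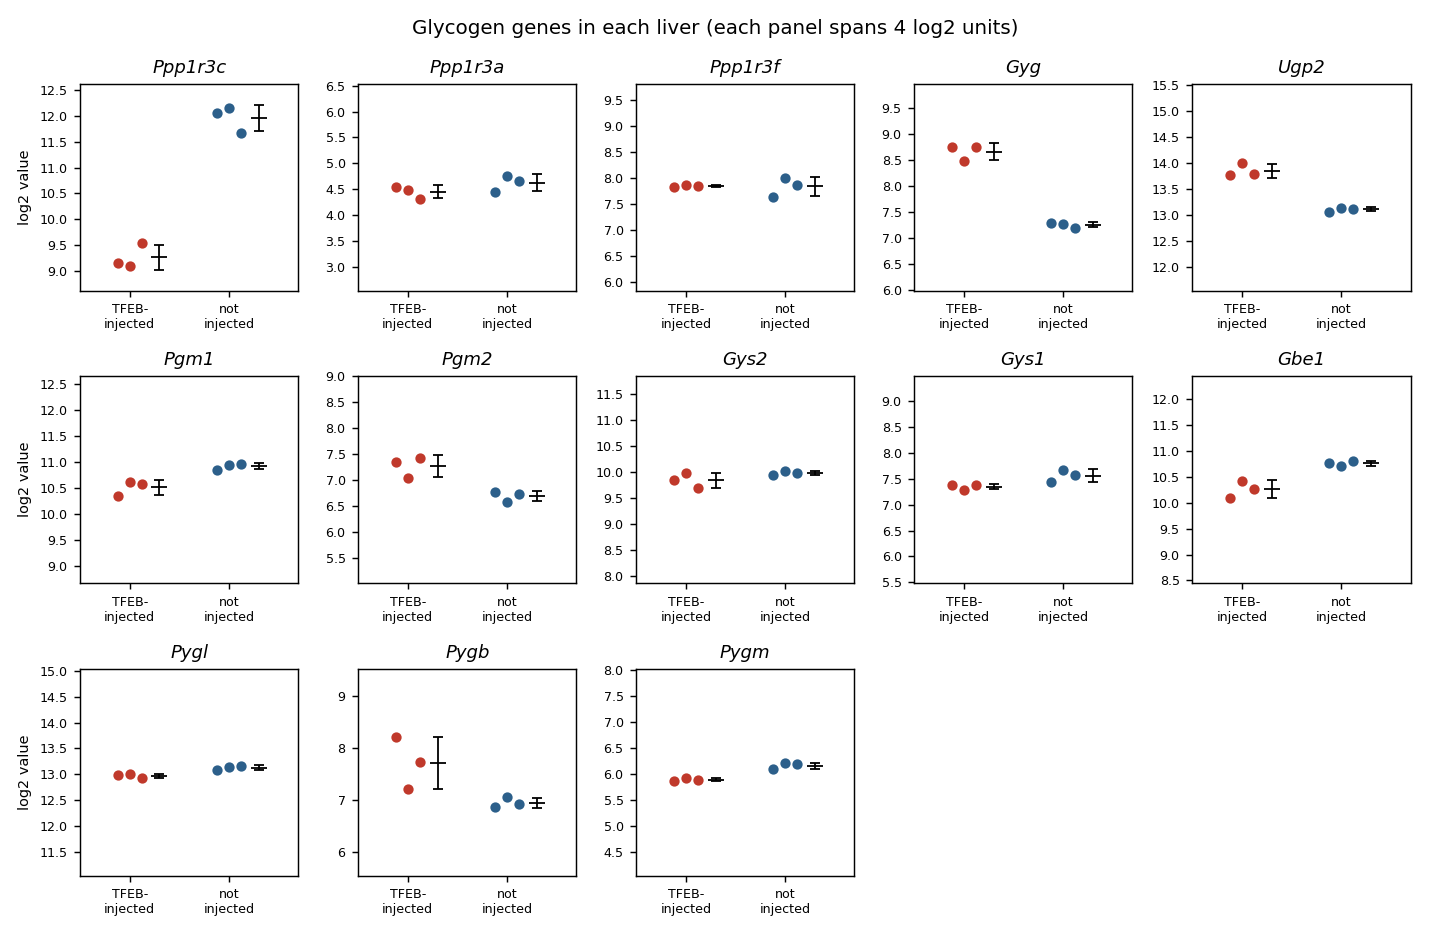
Log2 value of each of the 13 measured glycogen genes in each liver (dots; red, TFEB-injected; blue, not injected), with the group mean and SD as a black bar; every panel spans 4 log2 units. Ppp1r3c stands well apart between the groups (means of 9.27 and 11.96), Gyg and Ugp2 are higher in all 3 TFEB-injected livers, and Gys2 overlaps.

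The genes whose pattern over the 6 arrays lay nearest to Ppp1r3c, by root mean square distance of mean-centred log2 values, were Slc22a7 (0.25), Hsd3b2 (0.36) and Leap2 (0.37). Slc22a7 encodes an organic anion transporter, Hsd3b2 a steroid dehydrogenase of the 3-beta family and Leap2 a liver-derived peptide hormone. Their differences of -2.72, -2.22 and -2.15 are given as a description of these 6 arrays.

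The other measured targeting subunits were Ppp1r3a, the muscle form, and Ppp1r3f. Ppp1r3a read 4.55, 4.48 and 4.31 in TFEB-injected livers and 4.44, 4.76 and 4.66 in not-injected livers. The groups overlapped, and all 6 values were under 5.46, the smallest lower quartile of any array, so these probes read near the floor. Ppp1r3f read 7.83, 7.86 and 7.84 in TFEB-injected livers, against 7.64, 8.002 and 7.86 in not-injected livers. Its difference was 0.01 ± 0.10 (adjusted p = 0.971), with an interval of -0.22 to 0.23, and its sign turned in several alternatives.

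Gyg encodes glycogenin, the protein that attaches the first glucose units to itself and so starts a glycogen particle. It read 8.76, 8.48 and 8.75 in TFEB-injected livers, against 7.29, 7.27 and 7.19 in not-injected livers. All 3 TFEB-injected livers were more than 1 log2 unit above the highest not-injected liver. The difference was 1.41 ± 0.09 (adjusted p = 0.000118), and with any array left out it lay between 1.36 and 1.505 and kept its call. By the size of its difference, in either direction, it was among the top 2.04% of genes.

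Ugp2 encodes UDP-glucose pyrophosphorylase, which makes the glucose donor of glycogen synthase and of glucuronidation. It read 13.77, 14.01 and 13.78 in TFEB-injected livers and 13.06, 13.14 and 13.12 in not-injected livers on its brightest probe set, among the brightest genes of the arrays. The groups did not overlap, and the difference was 0.75 ± 0.08 (adjusted p = 0.00095), a rise of 1.68-fold. Its 4 other probe sets were higher as well, with differences of 0.70 to 0.98, and each of the 5 was called. These probe sets are not replicates, since they read the same 6 RNA samples, and the suffixes of 4 of them mark probes that are shared among transcripts.

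**Figure D2:**
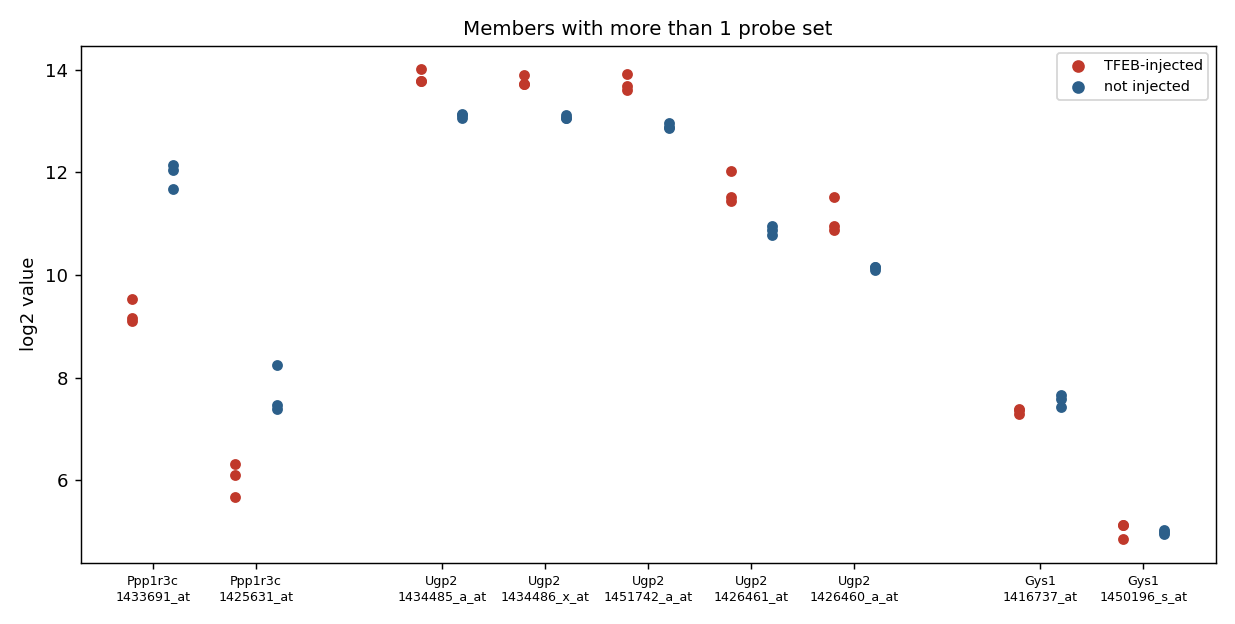
Log2 values (vertical axis) of each liver on every probe set of the members with more than 1, in red for TFEB-injected and blue for not-injected livers. Both Ppp1r3c probe sets are lower and all 5 Ugp2 probe sets higher in TFEB-injected livers, while the second Gys1 probe set overlaps near a log2 value of 5.

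The 2 phosphoglucomutases went opposite ways. Pgm1 and Pgm2 have exchanged names in mouse records, and the names here are those of the annotation, in which Pgm1 is the enzyme that interconverts glucose 1-phosphate and glucose 6-phosphate. Pgm1 read 10.35, 10.61 and 10.58 in TFEB-injected livers and 10.86, 10.95 and 10.97 in not-injected livers. It was lower by 0.41 on the log2 scale in TFEB-injected livers (-0.41 ± 0.09, adjusted p = 0.0123), with no overlap of the groups, and the call was lost without not-injected replicate 2 (adjusted p = 0.0503) or 3 (0.0517), and without variance moderation, that is with each gene's own spread alone (adjusted p = 0.0574). Pgm2, which in human acts mainly on pentose phosphates, read 7.35, 7.03 and 7.43 in TFEB-injected livers, against 6.77, 6.58 and 6.73 in not-injected livers. The groups of Pgm2 did not overlap, and it rose by 0.58 ± 0.11 (adjusted p = 0.00989), a call lost without variance moderation (adjusted p = 0.0666).

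Gys2 encodes the liver glycogen synthase. It read 9.85, 9.97 and 9.69 in TFEB-injected livers and 9.94, 10.01 and 9.98 in not-injected livers. The groups overlapped, and the difference of -0.14 ± 0.08 was not called (adjusted p = 0.252). Its 95% interval of -0.33 to 0.06 leaves room for a fall of 0.33 on the log2 scale. Gys1, the synthase of muscle and other tissues, read 7.37, 7.29 and 7.39 in TFEB-injected livers and 7.43, 7.67 and 7.58 in not-injected livers. The groups of Gys1 did not overlap, but the difference of -0.21 ± 0.08 did not pass (adjusted p = 0.0833) except without not-injected replicate 1 (-0.28, adjusted p = 0.0459). The second Gys1 probe set, at about 5.0 in all livers, had a difference of 0.05. Its values were all under 5.46, the smallest lower quartile of any array, so it read near the floor.

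Gbe1 encodes the branching enzyme. It read 10.09, 10.43 and 10.27 in TFEB-injected livers, against 10.78, 10.71 and 10.80 in not-injected livers. All 3 TFEB-injected livers were lower, and the difference was -0.50 ± 0.09 (adjusted p = 0.00786), with an interval of -0.72 to -0.28. The call of Gbe1 was lost without variance moderation (adjusted p = 0.0513). Its difference from Gys2 within each array, Gbe1 minus Gys2, was 0.42 ± 0.17 in TFEB-injected and 0.79 ± 0.07 in not-injected livers (SD, n = 3 each). This ratio differed by -0.36, with a two-sided exact permutation p of 0.1 over 20 assignments, the smallest that 3 against 3 can give (adjusted p = 0.2 over 2 pairs).

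Pygl encodes the liver glycogen phosphorylase. It read 12.988, 12.999 and 12.93 in TFEB-injected livers and 13.09, 13.15 and 13.16 in not-injected livers. The groups did not overlap, but the difference of -0.16 ± 0.06 missed the threshold (adjusted p = 0.0892), with an interval of -0.30 to -0.02. Gys2 minus Pygl was -3.13 ± 0.10 in TFEB-injected livers and -3.16 ± 0.02 in not-injected livers (SD, n = 3 each), a change of 0.02 (two-sided exact permutation p = 0.7). That test has few samples and does not show that the synthase and the phosphorylase changed alike.

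The phosphorylases named for brain and muscle moved apart. Pygb, the brain form that many tissues also express, read 8.21, 7.204 and 7.74 in TFEB-injected livers and 6.86, 7.05 and 6.92 in not-injected livers. The difference of 0.77 ± 0.22 was called (adjusted p = 0.0387), but injected replicate 2 lay close to the not-injected livers. The call of Pygb was lost without injected replicate 1 (0.53, adjusted p = 0.0685), injected replicate 3 (0.76, adjusted p = 0.097) or any of the not-injected livers (adjusted p of 0.0872 to 0.106), and without injected replicate 2 the rise was 1.03. It was also lost without variance moderation (adjusted p = 0.154). Pygm, the muscle form, read 5.87, 5.92 and 5.89 in TFEB-injected livers and 6.09, 6.20 and 6.18 in not-injected livers. Its fall of 0.27 ± 0.06 was small and at a low level (adjusted p = 0.0182), and the call was lost without injected replicate 1 or 3, or not-injected replicate 2 or 3 (adjusted p of 0.0543 to 0.0717).

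**Figure D3:**
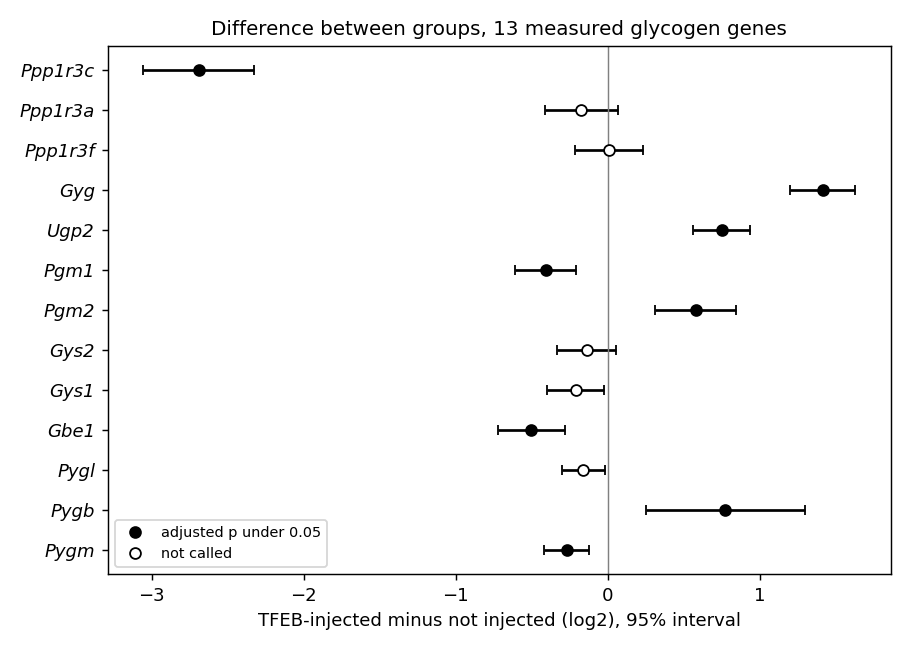
Difference in log2 value, TFEB-injected minus not injected, for the 13 measured glycogen genes, with 95% intervals; filled points were called at an adjusted p under 0.05. Ppp1r3c (-2.69) and Gyg (1.41) lie furthest from 0, and the intervals of Gys2, Ppp1r3a and Ppp1r3f cross it.

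**Figure D4:**
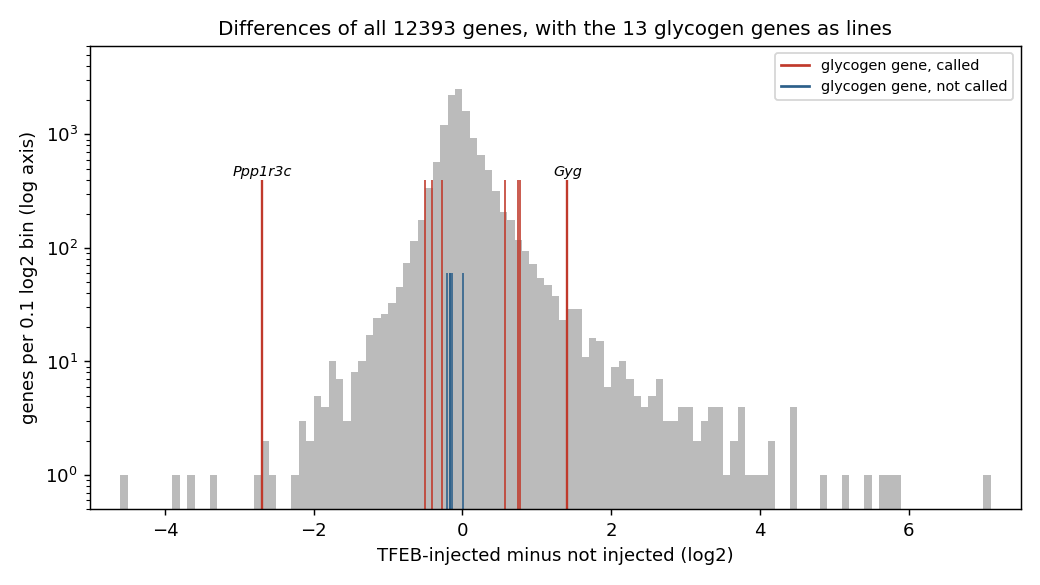
Numbers of genes (log axis) by difference, TFEB-injected minus not injected, in bins of 0.1 log2 units over all 12393 genes; vertical lines mark the 13 glycogen genes, red where called and blue where not, and line height carries no value. Ppp1r3c lies in the lower tail and the 5 genes that were not called lie between -0.21 and 0.01.

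Several measurements on these arrays run with the groups. The only Tfeb probe set read 7.48, 7.78 and 7.46 in TFEB-injected livers and 7.505, 7.59 and 7.47 in not-injected livers, a difference of 0.05 ± 0.10 (adjusted p = 0.716), and the labels do not say whether its probes can read the transgene. The spike-in control probe sets were lower on TFEB-injected arrays: 18 hybridisation controls by a median of -0.32 and 24 poly-A controls by a median of -0.44, and in 23 of the 24 poly-A controls and all 18 hybridisation controls every TFEB-injected array was the lower. These controls ran from -0.57 to -0.06. The falls of Gbe1, Pgm1 and Pygm are of that size, and the part of labelling or hybridisation in the members' differences was not tested. Array correlations over probe sets were 0.992 to 0.997 among TFEB-injected livers, 0.997 to 0.998 among not-injected livers and 0.975 to 0.988 between them. The tissue label held in the markers, since the 12 measured hepatocyte markers averaged 14.12 to 14.17 on the log2 scale in TFEB-injected livers and 14.23 to 14.24 in not-injected livers, a very bright level on these arrays. Their differences ran from -0.29 to 0.29, with Apob higher (0.29) and Tdo2 (-0.29) and Fga (-0.29) lower.

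Other cell types that express these genes were also read, as mean log2 values over each marker list, and in bulk liver fewer cells of a type and less RNA per cell cannot be told apart. The counts of called markers below stand beside 14.2% of all genes called higher and 13.9% called lower. The 11 skeletal muscle markers averaged 5.64 to 5.73 in TFEB-injected livers and 5.82 to 5.87 in not-injected livers, with 1 lower (Casq1, -0.26), 10 not called and every difference below 0. That level is close to the lower quartile of the arrays, and Pygm and Phka1, the muscle forms, lie a little higher and went the same way. The part of muscle RNA in their falls was not tested. The 10 endothelial markers averaged 8.68 to 8.89 in TFEB-injected livers and 8.26 to 8.37 in not-injected livers. Lyve1, Stab2, Pecam1 and Clec4g were higher and the other 6 were not called. Pecam1 read at a low level, with means of 5.80 in TFEB-injected and 5.39 in not-injected livers. The 12 Kupffer cell and macrophage markers averaged 9.65 to 9.84 in TFEB-injected livers and 9.26 to 9.66 in not-injected livers (4 higher and 1 lower). Lyz2 (0.93), Cd68 (1.74) and Cd5l (0.49) were among the higher ones and Marco (-0.80) was the lower one, while Adgre1 and Clec4f were not called. The part of these cells in the rises of Pygb and Gyg was not tested. In the other lists, Ptprc was higher, while the other 8 measured genes of the lymphocyte list, Cd3e, Cd4 and Cd8a among them, were not called. Of 10 stellate markers Reln was lower (-0.38) and 9 were not called, with a list median of 0.15. That list averaged 8.40 to 8.95 in TFEB-injected livers and 8.48 to 8.52 in not-injected livers. Of 4 erythroid markers Alas2 was lower (-1.60) and 3 were not called. None of the 4 adipocyte or 5 bile duct markers was called in limma. The smallest p belonged to Adipoq (-0.22, adjusted p = 0.0826) and Epcam (0.58, adjusted p = 0.056). Adipoq read under 5.46, the smallest lower quartile of any array, in all livers, which is near the floor. The adipocyte list had a median of -0.06, with Fabp4 at 0.89 (adjusted p = 0.0902).

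Of 14 measured kinases, phosphatase subunits and inhibitors that act on synthase and phosphorylase, 2 rose, 2 fell and 10 were not called, with a median of -0.03. The share called over all genes tested was 28.1%, so this count is near that share. Ppp1cc, the gamma catalytic subunit of PP1, read 12.96, 12.47 and 12.97 in TFEB-injected livers and 12.07, 11.98 and 11.98 in not-injected livers and rose by 0.79 ± 0.14 (adjusted p = 0.00575). The other catalytic subunits Ppp1ca and Ppp1cb read 0.16 and 0.01 and were not called. Of the phosphorylase kinase, Phka1 (muscle alpha subunit) fell by 0.33 and Phkg2 (liver gamma subunit) by 0.44, while the liver alpha subunit Phka2 (-0.05) and the beta subunit Phkb (0.14) were not called. Gsk3a, which phosphorylates synthase, rose by 0.24 and its relative Gsk3b read -0.08, not called.

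Glycogen is also degraded in lysosomes, and of 5 measured genes of this route 2 rose, 1 fell and 2 were not called, beside 28.1% called over all genes. Gaa, the lysosomal alpha-glucosidase, read 9.66, 9.60 and 9.73 in TFEB-injected livers and 9.45, 9.36 and 9.40 in not-injected livers and rose by 0.26 ± 0.07 (adjusted p = 0.0247). Gabarapl1, an Atg8 protein known to bind the glycogen receptor, rose by 1.14. That receptor, Stbd1, read 9.87, 9.88 and 9.83 in TFEB-injected livers, against 10.14, 10.28 and 10.50 in not-injected livers, and fell by 0.45 (adjusted p = 0.0132). Stbd1 and Gabarapl1, named partners in the capture of glycogen, thus had opposite signs. Their groups did not overlap, which was also so for 46.2% of all genes. The suffix of the Gabarapl1 probe set marks probes that are shared among transcripts.

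Among 13 genes of glucose entry and glucose 6-phosphate, 4 fell, 1 rose and 8 were not called, with a median of -0.11. Beside them, 13.9% of all genes were called lower and 14.2% higher. G6pc, the catalytic subunit that frees glucose from glucose 6-phosphate, read 11.05, 11.52 and 11.39 in TFEB-injected livers and 13.18, 13.05 and 12.95 in not-injected livers. It fell by 1.74 ± 0.13 (adjusted p = 0.000189), and its transporter partner Slc37a4 fell by 0.37 (adjusted p = 0.0278). Pck1 of gluconeogenesis fell by 1.14, the glucose-sensing factor Mlxipl by 0.84, and the pyruvate kinase Pklr rose by 0.30. The glucose carrier Slc2a2 (0.18) and Gckr (0.25), which holds glucokinase, were not called.

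Of 20 insulin, glucagon and AMPK signalling genes, 6 rose, 4 fell and 10 were not called, with a median of -0.11, where 14.2% of all genes were called higher and 13.9% lower. The adaptor Irs1 read 9.77, 9.73 and 10.04 in TFEB-injected livers and 10.81, 10.95 and 11.02 in not-injected livers, a fall of 1.08 ± 0.10 (adjusted p = 0.000509). The glucagon receptor Gcgr fell by 0.42, and the adrenergic receptor Adra1b by 0.48. Prkar1a, a regulatory subunit of cyclic AMP-dependent kinase, rose by 0.53. The insulin receptor Insr (-0.13) and Irs2 (-0.07) were not called.

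**Figure D5:**
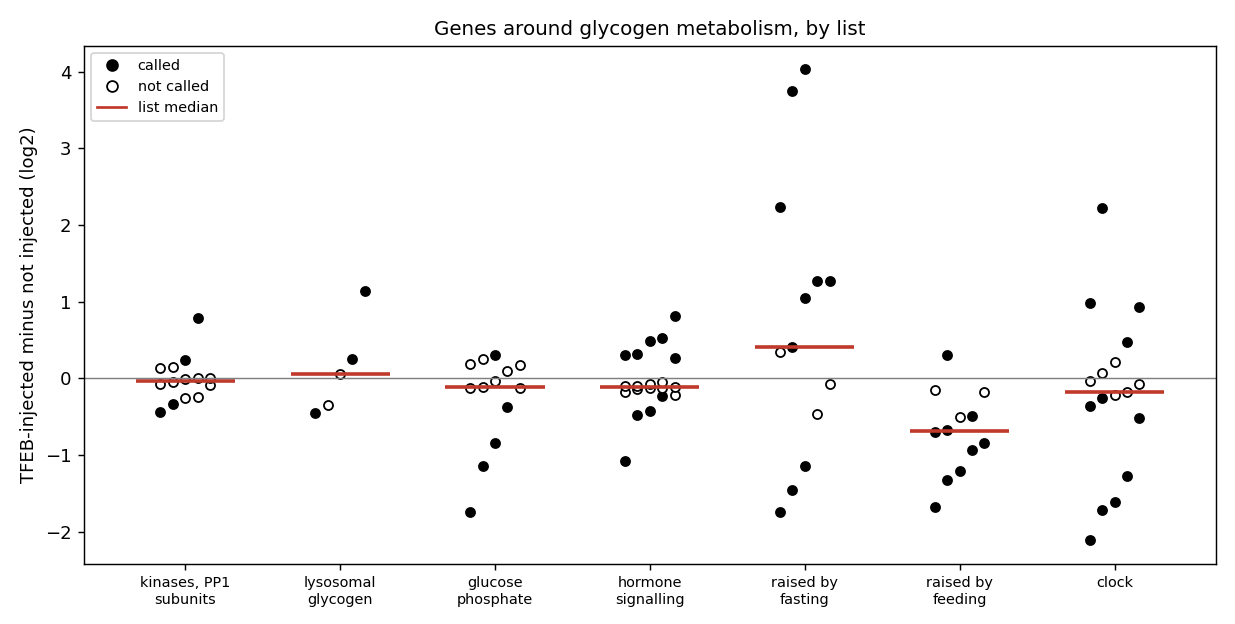
Difference in log2 value, TFEB-injected minus not injected, of each measured gene in 7 lists around glycogen metabolism (filled, called; open, not called), with the list median as a red line. Medians lie near 0 in the 4 lists of kinases and PP1 subunits, lysosomal glycogen, glucose phosphate and hormone signalling; the list raised by feeding has a median of -0.68.

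Because Ppp1r3c and the synthase genes are known to respond to feeding and time of day, lists of such genes were read beside them. For comparison, 14.2% of all genes tested were called higher and 13.9% lower, with a median difference of -0.05. Of 13 transcripts that fasting raises, 7 rose and 3 fell, with a median of 0.42; Ppargc1a, Pdk4 and Cyp4a14 were higher, and G6pc, Pck1 and Tat, also on that list, were lower. Of 12 that feeding raises, 8 fell and 1 rose, with a median of -0.68. Thrsp (-1.67), Srebf1 (-1.32), Fasn (-1.21) and Mlxipl (-0.84) were among those that fell. Of 17 clock genes 7 fell, 4 rose and 6 were not called. Arntl was lower by 1.28 on the log2 scale in TFEB-injected livers (-1.28), Nfil3 (-1.61) and Cry1 (-2.11) fell too, and Nr1d2 rose by 0.94. The part of feeding or of the hour of harvest in the fall of Ppp1r3c was not tested.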

How the data were processed

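Liver RNA of 6 mice was measured on Affymetrix mouse arrays, 1 per mouse. The authors deposited log2 values per probe set, made with the R package affy and RMA per the submitters' processing notes, with versions and filters not given in the sources used here. RMA equalises the arrays, so a shift of all transcripts one way would not show. No scanner files or detection calls were used, and the number of arrays limits precision.

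Of 22690 probe sets 64 were controls; 20380 had 1 gene symbol in the platform annotation, 691 several and 1555 none. For each of 12393 genes the probe set brightest on average was used. The test was limma (3.58.1 in R 4.3.3; lmFit and eBayes, two-sided, no covariate, no filter on low values) and Benjamini-Hochberg adjustment over all genes, or over all 20380 probe sets where each probe set is given. Every adjusted p of a gene is limma's. Called means an adjusted p under 0.05. The scripts were tested on simulated data. The tests, lists and members were chosen with earlier results of these data known. Named were the 13 members, Tfeb, up to 4 called genes with the smallest p of each list (the gene with the smallest p where none was called), and the 3 genes nearest to Ppp1r3c; others were named for their role after their values were seen. Arrays are biological replicates per the labels. The replicate numbers were not taken to pair the mice. Deviations from group means correlated at 0.136, 0.0567 and 0.0113 within numbers 1, 2 and 3, and at -0.163 to 0.0767 between unlike numbers. With so few arrays these values do not settle whether the mice were paired. The planned ratio of Ppp1r3c to Ppp1r3b was not computed. Python 3.11.15 and matplotlib 3.10.9 drew the plots.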

Additional observations from a re-analysis of the deposited data

How the results depend on the processing

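Tried were the replicate block, no moderation, a trend with intensity, only genes as bright as the median gene or brighter, averaged probe sets, a second quantile normalisation, centring on the array median, array weights, a 1.5-fold minimum and each array left out. Ppp1r3c, Gyg and Ugp2 kept direction and call in all 14 fits run for each of them. The count of called members was 8 in the main setting. It was 4 without moderation, 5 among the brighter genes (fewer members tested), 4 with the 1.5-fold minimum, and 5 to 8 with 1 array left out, the 5 without not-injected replicate 2 or 3. Called genes numbered 1881 without moderation, 1190 with the 1.5-fold minimum and 1973 to 4378 with 1 array left out, and called probe sets 2750 without moderation and 3047 to 6621 with 1 array left out. Without moderation Gbe1 (-0.50, adjusted p = 0.0513), Pgm1 (-0.41, adjusted p = 0.0574), Pgm2 (0.58, adjusted p = 0.0666) and Pygb (0.77, adjusted p = 0.154) lost their calls. Pygl was called with an intensity trend (-0.16, adjusted p = 0.0398) and with array weights (-0.18, adjusted p = 0.046). The sign of Ppp1r3f, not called in any of these, turned after a second quantile normalisation (-0.0496), centring (-0.013) and array weights (-0.027). It also turned without injected replicate 2 (-0.002) and without not-injected replicate 1 (-0.0916). Over all omissions of 1 array Ppp1r3f ran from -0.0916 to 0.0885. Gys2 minus Pygl ran from -0.0305 without injected replicate 2 to 0.0731 without injected replicate 3. With the replicate block 3348 genes, 5141 probe sets and 8 members were called, and no member changed its call; Ppp1r3c read -2.69 (adjusted p = 0.000979) and Gyg 1.41 (adjusted p = 0.000939). The causes of these changes were not tested. Scanner background corrections were not run on these processed values.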

Other observations

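Array weights estimated over all genes were lowest for injected replicate 2 (0.396) and highest for not-injected replicate 3 (1.88), and injected replicate 2 also held the lowest Gyg, Pgm2 and Pygb values of the injected livers. It held the highest Ugp2 value of all 6 livers.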
